A study of Mus musculus with 1012 samples.

Results

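The aryl hydrocarbon receptor (AHR) and NRF2 lead the main transcriptional responses to foreign chemicals and to oxidative stress. Their genes were examined here through 10 members, Ahr, Ahrr, Tiparp, Cyp1b1, Nqo1, Hmox1, Gclm, Txnrd1, Srxn1 and Gsta4, out of 30452 features of the count table. The members were selected on pathway membership and on their values in IBA cells after cytoplasmic sampling, so those values are given as a description with no test.

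Live-seq withdraws part of the cytoplasm of a living cell through a hollow microscope probe and sequences the RNA of the extract, so that the sampled cell can be followed afterwards. The series holds 1012 mouse single-cell libraries, 296 of them Live-seq extracts and 716 of them whole cells. IBA is a line of immortalised brown preadipocytes, derived from stromal vascular cells of the brown fat between the shoulder blades of young male C57BL6/J mice. In batch 8_1, 49 IBA cells were collected 1 h and 43 cells 4 h after Live-seq, beside 70 control cells labelled 0 h. According to the methods, the controls had no cytoplasm withdrawn, the extracts of the sampled cells were discarded, and sampled and control cells alike were collected on ice and picked singly. ASPC are primary adipose stem and progenitor cells from subcutaneous fat of young female C57BL/6J mice, untreated (ASPC_Pre) or exposed to the adipogenic cocktail DMIR of dexamethasone, isobutylmethylxanthine, insulin and rosiglitazone (ASPC_Post). RAW-G9 is 1 clone of the RAW264.7 macrophage line that carries a Tnf-promoter mCherry reporter and an EGFP-RelA fusion, left untreated (RAW_Mock) or stimulated with lipopolysaccharide (RAW_LPS), a component of bacterial walls. Wild-type RAW264.7 cells were sampled by Live-seq in batch 5Reseq, with 11 extracts after lipopolysaccharide and 1 without, and entered no comparison. Routine culture used 1 growth medium for all groups, with serum and antibiotics. The methods place Live-seq sampling at room temperature, in a medium independent of carbon dioxide that held lipopolysaccharide or the cocktail for treated cells. Whole cells outside batch 8_1 were trypsinised, kept on ice and sorted, so handling differed between extracts and whole cells. The labels name batches but no cultures or animals, so p-values measure only the spread between sums of cells from different batches, which may be technical.

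AHR is a ligand-activated transcription factor that pairs with ARNT on the xenobiotic response element and induces cytochrome P450 genes, together with its own repressors AHRR and TIPARP. NRF2, the product of Nfe2l2, is held in the cytoplasm by KEAP1 and degraded until oxidants or electrophiles release it. It then binds the antioxidant response element with small MAF proteins and induces genes of glutathione and thioredoxin metabolism. Nqo1 is a target of both factors.

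Promoters of 7 members, 9 promoters in all, were found in a RefSeq table on GRCm38.p6 that spans 250 bases before to 50 bases after each transcript start. The core letters of the xenobiotic response element, GCGTG, were searched on both strands and found in 8 of the 9 promoters, which belong to 6 members (3 of the 9 are of Txnrd1), and in 32.4% of all 32851 promoters. The core letters of the antioxidant response element, TGACNNNGC, were found in 3 of the 9 promoters, 1 each of Gclm, Txnrd1 and Srxn1, and in 12.4% of all promoters, and no match of one motif overlapped a match of the other. Windows of 30 bases are shown for the AHR feedback genes Ahrr and Tiparp and the P450 gene Cyp1b1, and for the glutathione and thioredoxin genes Gclm and Txnrd1, since these are the regulators and targets the values below are about. Each is written 5′ to 3′ on the strand of the gene, with the matched letters in capitals. CACGC is GCGTG on the other strand, and the Gclm and Txnrd1 capitals are TGACNNNGC on the other strand.
Ahrr (chr13:74292341-74292370, minus strand): gcggggcggctcGCGTGctggggtggggct
Tiparp (chr3:65528265-65528294, plus strand): ctccgtccggagCACGCgcacgggaggcgg
Cyp1b1 (chr17:79715120-79715149, minus strand): cgtcccgcccctCACGCcccaccccctaag
Gclm (chr3:122245413-122245442, plus strand): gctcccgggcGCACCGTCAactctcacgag
Txnrd1 (chr10:82859104-82859133, plus strand): ctggatttttGCTTTGTCAttctgacacgg
The Ahrr promoter held 3 such xenobiotic matches and the Gclm promoter 3 beside its antioxidant match. The Nqo1 window held neither set of letters. A match is a description of these letters in this window and says nothing on binding.

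Batch 8_1 is described first, as CPM, the counts of a gene scaled to 1000000 counts, in the summed counts of each group. With 1 batch per group no test was possible, and the 95% intervals given are exact Poisson intervals that cover counting error only. Intervals of shares of cells are exact binomial and likewise cover only the number of cells counted, since cells of 1 batch are not replicates of a condition. Reads were amplified by PCR without molecular identifiers and are not independent molecules. The 3 sums held 24401406 counts in the controls, 21680255 at 1 h and 15906116 at 4 h, and the median cell had 349245, 437922 and 367089 counts. A gene was called higher or lower at 1.5-fold or more with 10 CPM or more in either sum. On that rule 7.06% of the 8804 genes at the minimum were higher and 14.4% lower at 1 h, and 7.48% of 8813 were higher and 14.6% lower at 4 h. Of the members, 9 of 10 reached the minimum, 5 were higher at 1 h and 6 at 4 h, and 0 were lower at either time. These members were chosen on this contrast, so the counts are not read against those shares. The members' median log2 ratio was 0.70 at 1 h and 0.93 at 4 h. That of all genes at the minimum was -0.09 and -0.05, and for the same reason the medians are not read against each other.

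**Figure D1:**
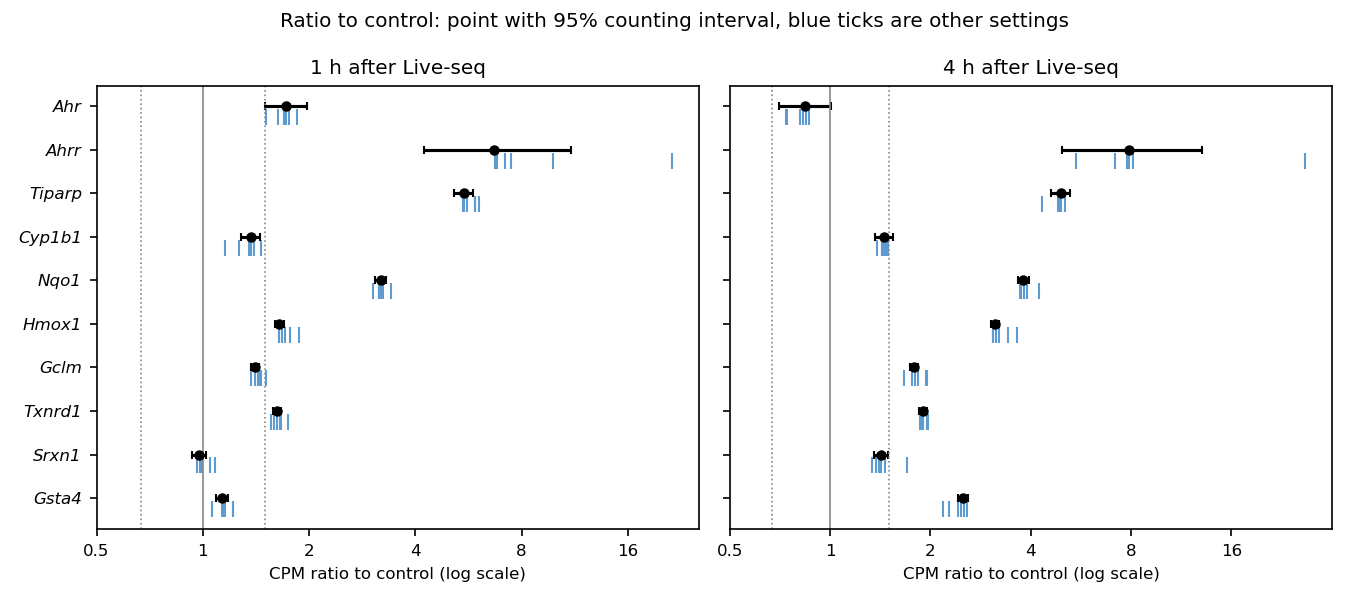
Ratio of CPM to the control sum (log axis) for each member in IBA cells 1 h and 4 h after Live-seq, 1 sum per time, with exact 95% counting intervals as bars, other settings as blue ticks and dotted lines at 1.5-fold in either direction. Tiparp, Ahrr and Nqo1 lie more than 3-fold above control at both times, while Hmox1 and Gsta4 lie further above control at 4 h than at 1 h and the Ahr interval spans 1 at 4 h.

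Ahr, which encodes the receptor itself, had a low level in these cells. It was at 14.1 CPM in the controls, 24.4 CPM at 1 h and 11.9 CPM at 4 h, ratios to control of 1.72 (1.501 to 1.98) and 0.84 (0.70 to 1.01). The sum at 1 h was the highest of the 3, and the 4 h interval spans 1. After each cell was thinned to 100000 counts, which left 64, 47 and 41 cells, at least 1 Ahr count was found in 32.8% of control cells (exact binomial 95% interval 21.6 to 45.7), 51.1% of cells at 1 h (36.1 to 65.9) and 26.8% at 4 h (14.2 to 42.9), with intervals that overlap between the groups. Before thinning these shares were 44.3%, 59.2% and 30.2%. Arnt, the dimer partner of AHR, was at 49.8, 52.6 and 44.4 CPM in the control, 1 h and 4 h sums.

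Among the 10 members the feedback repressors of AHR, Tiparp and Ahrr, had the largest ratios to control. Tiparp encodes a mono-ADP-ribosyltransferase that inactivates AHR. Its sums were 49.6 CPM in the controls, 272 CPM at 1 h and 244 CPM at 4 h, ratios of 5.49 (5.16 to 5.84) and 4.92 (4.61 to 5.25). Among single control cells Tiparp ran from 0 through a median of 15.8 to 254 CPM, at 1 h from 0 through 209 to 1329 CPM, and at 4 h from 0 through 133 to 1136 CPM. The ranges overlapped, yet 61.2% of cells at 1 h and 48.8% at 4 h were above the 90th percentile of the controls, 137.6 CPM. Thinned shares of cells with a Tiparp count were 65.6% (52.7 to 77.1), 97.9% (88.7 to 99.9) and 97.6% (87.1 to 99.9).

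Ahrr, the AHR repressor that competes for ARNT, stayed below the 10 CPM minimum in all 3 sums. It was at 0.90, 6.04 and 7.10 CPM, with 22 counts in the controls and 131 at 1 h, ratios of 6.70 (4.25 to 11.1) and 7.88 (4.96 to 13.1). These counts came from 3 of 70, 11 of 49 and 9 of 43 cells, and 1 control cell held 77.3% of the control counts. Leaving out the highest cell of each group moved the ratios to 21.3 and 26.7, so the size of the Ahrr ratio turned on single cells. Cyp1b1, a P450 enzyme of steroid and hydrocarbon metabolism, lay just outside the 1.5-fold threshold at 4 h, with 77.3, 105.8 and 112.2 CPM and ratios of 1.37 (1.29 to 1.45) and 1.45 (1.36 to 1.55).

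Nqo1, the quinone reductase induced through both factors, was next to Tiparp in size. Its sums were 151.6 CPM in the controls, 484 CPM at 1 h and 576 CPM at 4 h, ratios of 3.19 (3.07 to 3.31) and 3.80 (3.66 to 3.95). Single control cells ran from 0 through a median of 97.7 to 1005 CPM, cells at 1 h from 0 through 235 to 2300.5 CPM, and cells at 4 h from 5.61 through 372 to 2717 CPM. Above the control 90th percentile of 365 CPM were 36.7% of cells at 1 h and 51.2% at 4 h.

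The NRF2 targets showed more than one time course. Hmox1, which encodes the heme-degrading enzyme heme oxygenase-1, was at 291, 479 and 910 CPM, ratios of 1.65 (1.597 to 1.70) at 1 h and 3.13 (3.04 to 3.22) at 4 h. Its cell medians were 190, 342 and 539 CPM, and the highest cells reached 1130, 2036 and 3286 CPM. Hmox1 was thus 1.90-fold (1.85 to 1.95) higher at 4 h than at 1 h.

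Gsta4, a glutathione transferase that removes the lipid peroxidation product 4-hydroxynonenal, was close to control at 1 h and higher at 4 h. Its sums were 234, 265.1 and 586 CPM, ratios of 1.13 (1.09 to 1.18) and 2.51 (2.43 to 2.59). The cell medians were 89.0, 71.7 and 339 CPM, so the typical cell differed at 4 h only. The highest cells held 2186, 2371 and 3361 CPM, and 1 cell gave 24.9% of the Gsta4 counts at 4 h.

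Gclm and Txnrd1 were the most evenly detected members. Gclm, the modifier subunit of the enzyme that limits glutathione synthesis, was at 386, 544 and 690 CPM, ratios of 1.41 (1.37 to 1.45) and 1.79 (1.74 to 1.84). It lay just outside the threshold at 1 h and just inside it at 4 h. Txnrd1, cytosolic thioredoxin reductase, was at 432, 701 and 821 CPM, ratios of 1.62 (1.58 to 1.66) and 1.90 (1.85 to 1.95), and was the member just inside the threshold at 1 h. Every thinned cell of the 3 groups had a Txnrd1 count. Its cell medians were 358, 589 and 685 CPM, those of Gclm 351, 486 and 567 CPM.

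Srxn1, sulfiredoxin, which restores overoxidised peroxiredoxins, was the member closest to control at 1 h. Its sums were 153.3, 149.8 and 218 CPM, ratios of 0.98 (0.93 to 1.02) and 1.42 (1.36 to 1.49), and its cell medians were 118, 139 and 133 CPM. At 4 h 53.5% of cells were above the control median, and 1 cell held 11.3% of the counts. With every cell sampled down to the same depth its ratio at 4 h was 1.70, past the threshold.

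**Figure D2:**
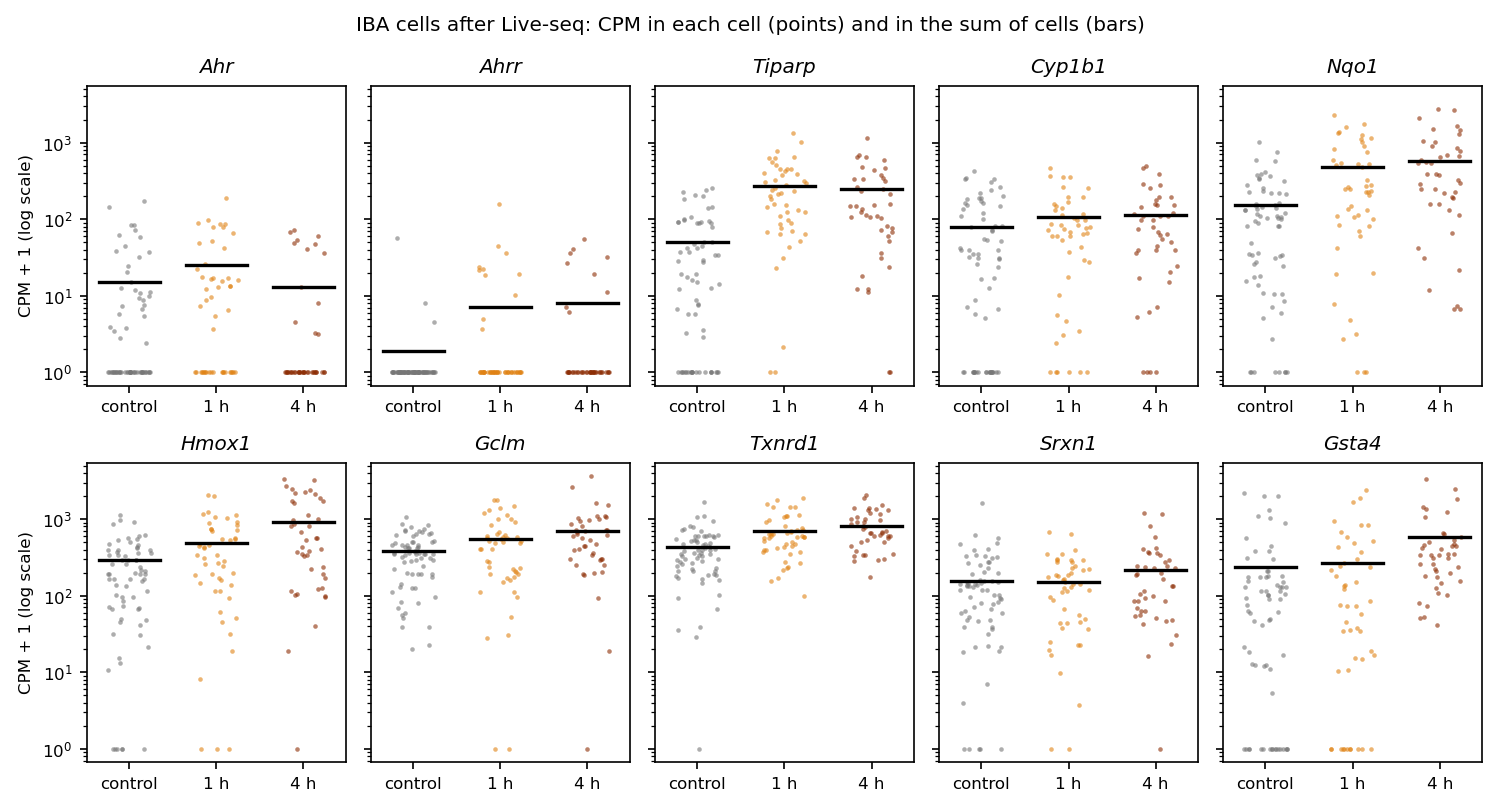
CPM of each member in single IBA cells of the control, 1 h and 4 h groups of batch 8_1 (70, 49 and 43 cells), plotted as CPM + 1 on a log axis, with each point 1 cell and each bar the CPM of the group's summed counts. The Tiparp bars stand at 49.6, 272 and 244 CPM and the Nqo1 bars at 151.6, 484 and 576 CPM, with overlapping cells in every panel, and most cells of each group have no Ahrr count.

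Per kilobase of exon the members differed widely in level. In the controls the CPM per kilobase was 185 for Gsta4, 166 for Hmox1, 97.6 for Nqo1, 61.4 for Gclm, 61 for Txnrd1, 54.4 for Srxn1, 13.2 for Cyp1b1, 11.4 for Tiparp, 2.29 for Ahr and 0.0955 for Ahrr. At 4 h Hmox1 stood first at 520 CPM per kilobase, followed by Gsta4 at 463 and Nqo1 at 371. Tiparp, which had the largest ratio among members above the minimum, remained at a lower level of 56 CPM per kilobase.

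Across single cells of 1 group the members varied together only weakly. The Spearman correlation over the 45 pairs of members had a median of 0.20 in the 70 control cells, 0.25 at 1 h and 0.15 at 4 h. Cells of a group share a batch and differ in depth, so these are descriptions. Nqo1 with Hmox1 gave 0.43, 0.52 and 0.46, Nqo1 with Gsta4 0.49, 0.39 and 0.45, and Gclm with Txnrd1 0.37, 0.46 and 0.48. The highest single value was 0.62, for Nqo1 with Gclm at 1 h.

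Other genes of the pathways were taken from lists that held 15 AHR and 37 NRF2 pathway genes, members included. Because the members were chosen on these values, they are left out of the counts that follow. All gene lists used here were also chosen with earlier results of these data known. Their counts beside the shares of all genes are therefore a description. Of the 10 other AHR genes 5 reached the minimum at 1 h, and 1 of them, Cyp1a1, was higher and 0 lower, beside the 7.06% higher and 14.4% lower of all genes, with a median log2 ratio of 0.094. Cyp1a1, the classical P450 target of AHR, had 0 counts in the controls, 488 at 1 h and 41 at 4 h, at least 183-fold and 21-fold above a floor of 3 counts over the control group. Its counts came from 10.2% of cells at 1 h and 4.65% at 4 h. Its levels were 22.5 CPM at 1 h and 2.58 CPM at 4 h, the latter under the 10 CPM minimum. At 4 h 0 of the 4 other AHR genes at the minimum were higher or lower, beside 7.48% and 14.6% of all genes, with a median of 0.077.

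Of the 30 NRF2 genes that are no members and were not left out of the library sizes, 29 reached the minimum. At 1 h 4 were higher and 4 lower, with a median log2 ratio of 0.056, and at 4 h 7 were higher and 1 lower, with a median of 0.34, beside the same shares of all genes. The cystine transporter gene Slc7a11 was at 87.3, 182 and 215 CPM, Osgin1 at 20.9, 52.1 and 51.7 CPM and the autophagy receptor gene Sqstm1 at 296, 517 and 552 CPM. Gclc, the catalytic partner of Gclm, was at 81.6, 125 and 183 CPM. It is among the genes found in negative controls and was left out of these counts and of all tests. Maff, which encodes a small MAF partner, and Gstm1 were near control at 1 h, with ratios of 1.05 and 1.04, and reached 2.03 and 1.83 at 4 h. Nfe2l2 itself was at 106.8, 135 and 118 CPM. Keap1, its inhibitor, was lower at both times, at 38.8, 19.6 and 25.5 CPM, and Ephx1, Mafg and Tkt were lower at 1 h only by this rule.

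Stress genes outside both pathways were counted beside them. None of the 6 heat shock genes of 8 that reached the minimum was 1.5-fold higher or lower at either time. Of 8 genes of the integrated stress response, 3 were higher and 1 lower at both times, beside 7.06% and 14.4% of all genes at 1 h and 7.48% and 14.6% at 4 h. Atf3 was at 4.02, 33.7 and 20.4 CPM, while Chac1, a glutathione-degrading enzyme, was at 41.4, 26 and 6.16 CPM.

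**Figure D3:**
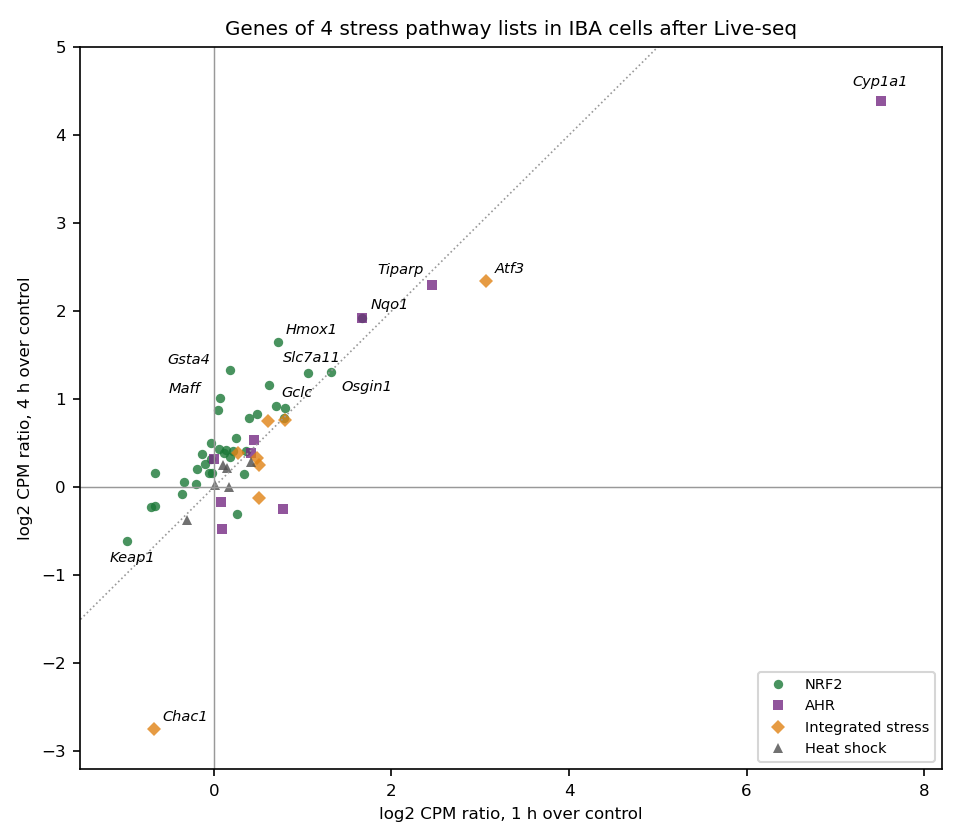
Log2 ratio of CPM to control at 1 h (horizontal) and 4 h (vertical) for genes of the AHR, NRF2, integrated stress and heat shock lists, each point 1 gene at the 10 CPM minimum and the dotted line marking equal ratios. Gsta4 and Maff lie near 0 at 1 h and above it at 4 h, whereas Cyp1a1, placed at its lower bound against the floor, lies below the line.

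Several measured properties moved with these groups. The median share of mitochondrial counts was 4.52% in the controls, 8.74% at 1 h and 9.01% at 4 h. With the mitochondrial genes left out of the library size, an alternative chosen after seeing the data, 5 members were higher at 1 h and 6 at 4 h as before. All 3 sums had mesenchymal markers, summed at 2614, 2851 and 2879 CPM, a range below the 5068 to 14150 CPM of the other whole IBA sums. Of 8 such markers at the minimum at 1 h, Dcn was higher, and of 7 at 4 h Pdgfrb was lower. Dcn had 12 counts in the controls, 494 at 1 h, from 10.2% of cells, and 0 at 4 h. Of 3 adipogenic markers at the minimum, Fabp4 was higher at both times and Pparg lower at 1 h. Macrophage markers summed to 23.4, 19.8 and 27.3 CPM, with Ptprc and Itgam at 0 in each. The part of the mitochondrial share in these values was not tested beyond that alternative. Scaling by TMM, which trims extreme genes, changed the split over all genes at 1 h from 622 higher and 1267 lower to 882 and 928, and the members higher at 1 h from 5 to 6.

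The members were next compared across the other states. In whole cells they fell into genes that were present in both lineages and genes that were near absent from the macrophage line. IBA against RAW_Mock was tested with edgeR's quasi-likelihood test on 12 sums of cells from 3 batches (8_8, 9_1 and scRNA), a gene being called at an adjusted p under 0.05 and more than 1 on the log2 scale. Of 13403 genes tested 22% were called higher and 12.1% lower in IBA cells. Of the 10 members 5 rose, namely Ahr, Cyp1b1, Nqo1, Gsta4 and Srxn1, and 0 fell.

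**Figure D4:**
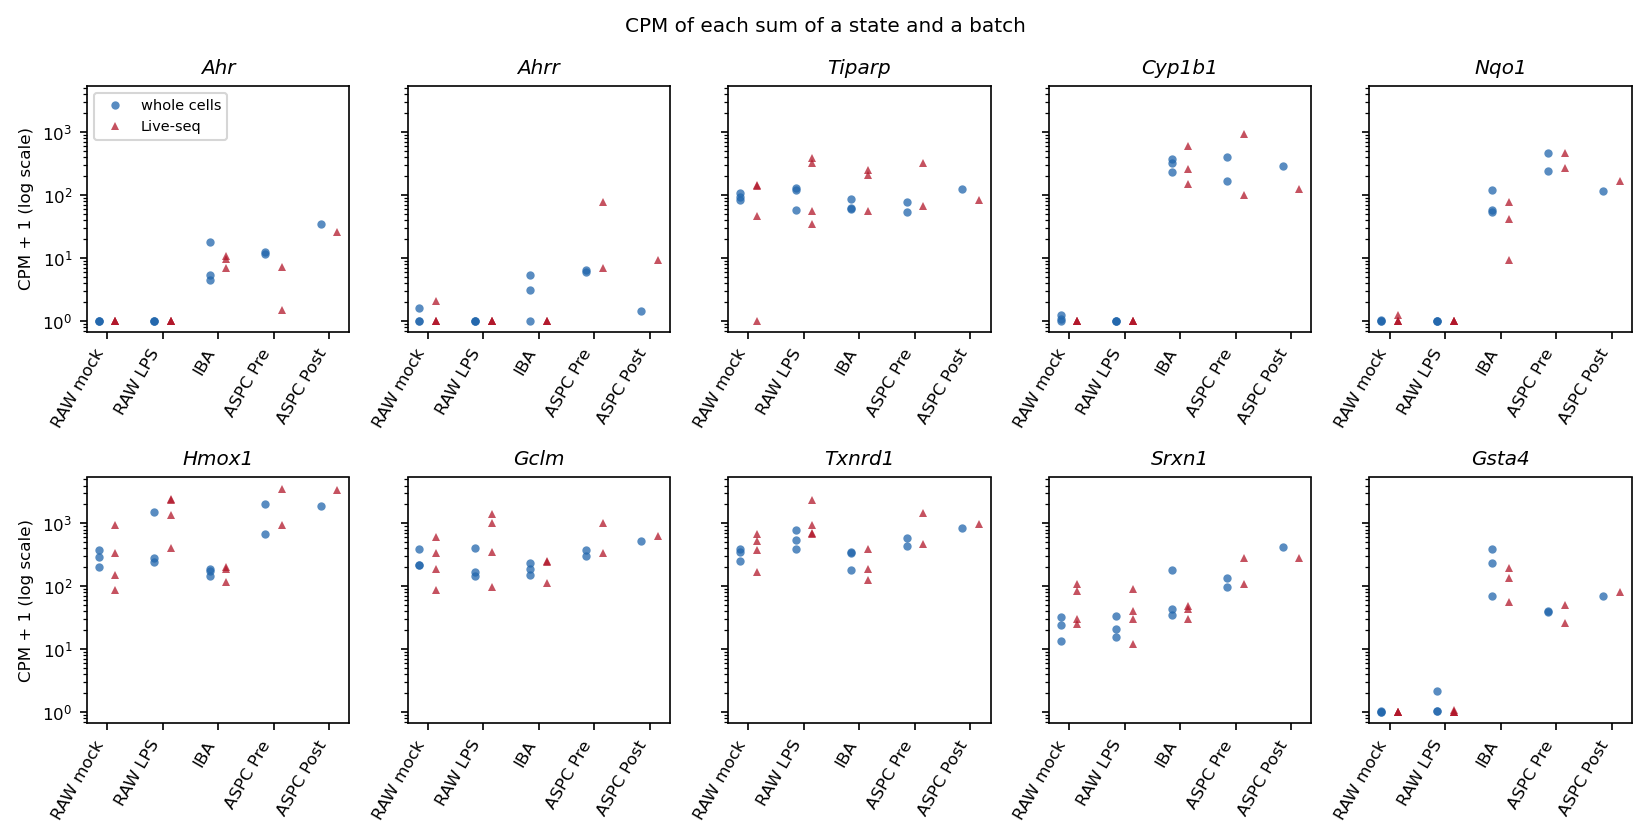
CPM of each member in every sum of at least 3 cells (log axis, with 0 drawn at the foot), by state, with whole-cell and Live-seq sums marked apart and each point 1 batch. Ahr, Cyp1b1, Nqo1 and Gsta4 lie at or near 0 in every RAW sum and above 3 CPM in whole IBA cells, while Hmox1, Gclm, Txnrd1 and Tiparp are found in all whole-cell states.

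Ahr had 0 counts in all whole-cell RAW_Mock sums, which allows at most 0.0874 to 0.693 CPM per sum, and 4.38, 3.40 and 16.8 CPM in IBA cells of batches 8_8, 9_1 and scRNA. Pooled over batches it was at least 209-fold higher in IBA cells (adjusted p = 0.0022, edgeR). Cyp1b1 was at 324, 229 and 368 CPM in IBA cells, 20601 counts in all against 3 counts in RAW_Mock, a ratio of 6437 (2202 to 31216). Nqo1 was at 120.5, 56.3 and 53.2 CPM in IBA cells and had 1 count in RAW_Mock, and Gsta4 was at 386, 232 and 69.7 CPM against 2 counts. By these counts the macrophage line gave almost no transcript of the receptor or of these 3 genes. Adjusted p-values in edgeR were 1.2e-05 for Cyp1b1, 7.4e-05 for Nqo1 and 3.9e-05 for Gsta4. Ahr and these 3 genes passed the filter for testing only through the IBA and ASPC states, so their p-values add no support to the counts.

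Srxn1 was expressed in both lines and rose in IBA cells by 1.77 ± 0.37 (SE) on the log2 scale (adjusted p = 0.0055, edgeR). Its IBA sums of 179, 34.1 and 42.6 CPM did not overlap the RAW_Mock sums of 31.4, 23.7 and 12.6 CPM, although the IBA sum of batch 8_8 was far above the other 2. Without batch scRNA Srxn1 lost its call and 4 members were called. Tiparp, Hmox1, Gclm and Txnrd1 differed by -0.38, -0.59, -0.39 and -0.16 on the log2 scale and were not called. In batch 9_1 all 10 macrophage markers had counts in IBA cells, summing to 607 CPM against 25.9 and 8.07 CPM in the other batches, and without that batch 5 members were called. The median log2 fold change of all genes in this comparison was 0.21.

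ASPC_Pre cells, the other adipose precursors, held more of several oxidative stress targets than IBA cells. Hmox1 was at 685 and 2057 CPM in ASPC_Pre of batches 8_8 and 9_1 and at 173, 147.1 and 186 CPM in IBA cells, and IBA cells differed by -3.203 ± 0.83 on the log2 scale (adjusted p = 0.039, edgeR). Nqo1 was at 237 and 457 CPM in ASPC_Pre and fell by 2.36 ± 0.56 in IBA cells (adjusted p = 0.039, edgeR). Txnrd1 was at 586 and 435 CPM in ASPC_Pre against 349, 183 and 342 CPM, with -1.30 ± 0.29 on the log2 scale (adjusted p = 0.026, edgeR). None of these 3 genes overlapped between IBA and ASPC_Pre sums. The share of all genes without overlap was not counted, so this is a description of the values.

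Gsta4 went the other way. It was at 37.9 and 39.9 CPM in ASPC_Pre and rose in IBA cells by 2.50 ± 0.70 on the log2 scale (adjusted p = 0.049, edgeR). Over all genes 3.77% were called higher and 7.61% lower in IBA cells, against 1 and 3 of the 10 members. Gclm was at -1.05 on the log2 scale with an adjusted p of 0.056 in edgeR, just outside the threshold, while Ahr was at -1.71, Srxn1 at -0.73, Tiparp at -0.24 and Cyp1b1 at -0.20. ASPC_Pre was sampled in 2 of the 3 batches, and leaving out batch 9_1 or batch scRNA left 0 members called. Leaving out batch 8_8 left 3, all lower in IBA cells, so the Gsta4 call was lost with any 1 batch left out. Without 9_1 the log2 fold change of Hmox1 was -1.44 and that of Nqo1 -1.24. This comparison uses the same IBA sums as the one before it.

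The wider lists, with the members included here and in the tests below, gave counts of the same kind in whole cells. Against RAW_Mock, 6 of 10 AHR genes tested rose in IBA cells and 0 fell. The 6 hold the members Ahr, Cyp1b1 and Nqo1, already given above. Arnt, the dimer partner of AHR, rose by 1.32 ± 0.30 on the log2 scale (adjusted p = 0.0077, edgeR). Arnt was not called without batch 9_1 or without batch scRNA, with an adjusted p of 0.12 in edgeR each time. Of 36 NRF2 genes 11 rose and 5 fell, beside the 22% and 12.1% of all genes given above. The 11 hold the members Nqo1, Gsta4 and Srxn1. Those that fell were Tkt, Taldo1 and Pgd of the pentose phosphate pathway, the ferritin gene Fth1 and the exporter gene Abcc4. Median log2 fold changes were 2.38 for the AHR list and 0.29 for the NRF2 list, and 0.21 for all genes. Ahr, Cyp1b1, Nqo1 and Gsta4 passed the filter only through the IBA and ASPC states, so they could only rise. The list counts and medians against RAW_Mock are therefore not read against those of all genes. Against ASPC_Pre, 0 AHR genes rose and 1, the member Nqo1, fell. Of the 36 NRF2 genes 3 rose and 11 fell, beside 3.77% and 7.61% of all genes. The 3 hold the member Gsta4, and the 11 hold the members Hmox1, Nqo1 and Txnrd1. Medians were -0.22 for the AHR list and -0.74 for the NRF2 list, beside -0.11 for all genes. The NRF2 genes that fell also included Nfe2l2 itself, at -1.07 ± 0.22 (adjusted p = 0.019, edgeR), and both ferritin genes, Fth1 and Ftl1. Without batch 9_1 the NRF2 genes called were 0 higher and 1 lower, without batch scRNA 1 and 2, and Nfe2l2 was not called with any 1 batch left out, its adjusted p in edgeR being 0.061 to 0.14.

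The states were ordered by whole-cell level. Hmox1 was highest in ASPC_Pre, with a mean of 1371 ± 970.3 CPM (SD, n = 2), and in the single ASPC_Post sum of 1871 CPM. It was followed by RAW_LPS at 684 ± 734 CPM (n = 3). RAW_Mock at 291 ± 87.9 CPM and IBA at 169 ± 20.02 CPM came next. Among these sums, only RAW_Mock and IBA were neighbours that did not overlap. The unsampled IBA control cells described first were left out of this ordering. Their Hmox1 sum of 291 CPM lay inside the RAW_Mock range of 203 to 379 CPM. Tiparp ran from 63.9 ± 16 CPM in ASPC_Pre and 67.6 ± 14.1 in IBA to 93.8 ± 12.4 in RAW_Mock and 100.1 ± 37.6 in RAW_LPS, neighbours that all overlapped, and was at 123 CPM in ASPC_Post. Srxn1 stood at 426 CPM in ASPC_Post, 115 ± 25.8 in ASPC_Pre, 85.1 ± 81.1 in IBA and 22.6 and 22.7 CPM in both RAW states, where the ASPC_Pre and IBA sums overlapped, as did those of both RAW states. Ahrr was below 6 CPM in every whole-cell sum of these states and had 0 counts in all 3 RAW_LPS sums.

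In whole RAW-G9 cells none of the members passed the test between lipopolysaccharide and mock. Over all genes 1.25% were called, 167 of 13403, and 0 of 10 members (edgeR). At an unadjusted p under 0.05 there were 1971 genes and 1 member, and DESeq2 and the newer edgeR fit also called 0 members. Txnrd1 came closest, with 254, 356 and 390 CPM in RAW_Mock and 547, 391 and 798 CPM in RAW_LPS of batches 8_8, 9_1 and scRNA. It was higher in 3 of 3 batches, by 1.10- to 2.15-fold, and its log2 fold change of 0.87 ± 0.26 had an adjusted p of 0.16 in edgeR.

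Hmox1 differed between batches in its response. It was at 379, 290 and 203 CPM in RAW_Mock and at 1532, 282 and 239 CPM in RAW_LPS, ratios of 4.04, 0.97 and 1.18 within the batches. The log2 fold change of 1.17 ± 0.68 had an adjusted p of 0.49 in edgeR, and batch 8_8 alone was more than 1.5-fold higher. Gclm was at ratios of 1.02, 0.67 and 0.75, Srxn1 at 1.06, 0.84 and 1.17 and Tiparp at 0.70, 1.35 and 1.10, all of mixed direction. Ahr, Nqo1 and Cyp1b1 had 0 counts with lipopolysaccharide and Gsta4 7, so no difference between the RAW states was detectable for these genes at this depth. On the NRF2 list 2 of 36 genes rose and 0 fell, Slc7a11 by 2.88 ± 0.41 (adjusted p = 0.019, edgeR) and Maff by 3.94 ± 0.75 (adjusted p = 0.046, edgeR). Neither call held with any 1 of the 3 batches left out, where the adjusted p ran from 0.072 to 0.11 for Slc7a11 and from 0.065 to 0.23 for Maff (edgeR). The medians were -0.04 for this list, 0.05 for the AHR list and -0.01 for all genes.

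In Live-seq extracts the same contrast was tested with a common dispersion of 1.47 between sums, against 0.18 in whole cells. Of 11577 genes tested in 14 sums of batches 6, 7, 8_8 and 9_4, 0% were called between RAW_LPS and RAW_Mock, and 0 of 9 members tested (edgeR). At an unadjusted p under 0.05 there were 545 genes and 2 members, the newer edgeR fit called 1 gene and 0 members, and DESeq2 448 genes and 1 member, Txnrd1. Txnrd1 was at 691, 169, 516 and 378 CPM in RAW_Mock of the 4 batches and at 2390, 694, 946 and 674 CPM in RAW_LPS. It was higher in 4 of 4 batches, by 1.78- to 4.12-fold, with a log2 fold change of 1.43 ± 0.38 and an adjusted p of 1.0 in edgeR.

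Hmox1 was at 85.7, 151.9, 929 and 343 CPM in RAW_Mock extracts and at 2394, 1371, 2439 and 406 CPM in RAW_LPS extracts. It was likewise higher in 4 of 4 batches, by 1.18- to 27.9-fold, with a log2 fold change of 2.44 ± 0.84 and an adjusted p of 1.0 in edgeR. In batch 6, with 8 and 4 extracts, 1 cell held 96.3% of the Hmox1 counts of RAW_Mock and 1 cell 79.9% of the Txnrd1 counts of RAW_LPS. Tiparp, Gclm and Srxn1 were of mixed direction over the batches. The median log2 fold change of all genes was -0.42, -0.36 with RLE size factors, -0.18 in the DESeq2 fit and -0.64 to -0.03 with 1 batch left out, the last without batch 8_8.

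Between the lines, the Live-seq extracts of RAW_Mock again held almost no counts of Cyp1b1, Gsta4, Nqo1 and Ahr. IBA against RAW_Mock gave 1.58% of genes called higher and 0.898% lower, and 3 of 9 members rose, namely Cyp1b1 (adjusted p = 0.022), Gsta4 (adjusted p = 0.020) and Nqo1 (adjusted p = 0.036) in edgeR. Cyp1b1 was at 587, 146.9 and 259 CPM in IBA extracts of batches 7, 8_8 and 9_4 and Gsta4 at 137, 55.1 and 192 CPM, both with 0 counts in RAW_Mock, at least 4096-fold and 1505-fold higher. Ahr was at 8.66, 9.72 and 5.86 CPM against 0 counts, at least 84.2-fold higher, yet with an adjusted p of 0.18 in edgeR. Cyp1b1, Gsta4, Nqo1 and Ahr again passed the filter for testing only through the IBA and ASPC states, so their p-values add no support to the counts. Leaving out batch 7, 8_8 or 9_4 left 0 members called. The median log2 fold change of all genes was 0.13.

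Between IBA and ASPC_Pre extracts 0.0173% of genes, 2 in all, were called, and 0 of 9 members (edgeR), with 568 genes and 4 members at an unadjusted p under 0.05. The newer edgeR fit called 9 genes and 0 members, and DESeq2 204 genes and 1 member, Hmox1. Hmox1 was at 934 and 3565 CPM in ASPC_Pre of batches 8_8 and 9_4 and at 188, 115 and 204 CPM in IBA extracts, and Nqo1 at 268 and 468 CPM against 74.8, 8.33 and 40.6 CPM. Neither gene overlapped between IBA and ASPC_Pre extracts, and both were on the same side as in whole cells. The share of all genes without overlap was not counted. Within batches, Txnrd1 and Gclm were lower and Gsta4 higher in IBA in 2 of 2 batches of either technique. Tiparp was lower in 2 of 2 batches of extracts but higher in 2 of 2 of whole cells. Srxn1 was of mixed direction in whole cells, and Cyp1b1 in both techniques. The ASPC_Pre extracts of batch 8_8 stood apart, with a median of 1636 genes per extract against 6058 in batch 9_4, and without that batch Cyp1b1 turned from -0.88 to 1.03 and Ahr from 1.48 to -0.41 on the log2 scale.

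Adipogenic treatment of ASPC was covered by 1 batch in each technique and is described without a test. Srxn1 was at 97 CPM in ASPC_Pre and 426 CPM in ASPC_Post of whole cells (batch 9_1), and at 109.6 and 281 CPM in extracts (batch 9_4), ratios of 4.39 and 2.56. Nqo1 went the other way, from 457 to 115 CPM in whole cells and from 468 to 165 CPM in extracts, ratios of 0.25 and 0.35. Ahr was at 10.4 and 32.9 CPM in whole cells and at 6.10 and 24.8 CPM in extracts, where 3 of 37 ASPC_Post extracts had a count and 1 of them held 68% of the counts. The ratios in whole cells and extracts were 1.92 and 2.13 for Txnrd1, 1.71 and 1.84 for Gclm and 1.71 and 1.65 for Gsta4. Hmox1 was near 1 in both, at 0.91 and 0.95, with 2057 and 1871 CPM in whole ASPC_Pre and ASPC_Post. Cyp1b1 was at 1.74 and 1.25 and Tiparp at 2.33 and 1.22. The labels mark 66 extracts, among them 31 of ASPC_Pre and 24 of ASPC_Post, as coming from cells that were sampled in sequence. For 13 cells both extracts are in the table, so the Live-seq sums are in part from the same cells.

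Batch 8_8 was the only batch with both techniques. Tiparp was higher in extracts than in whole cells in 4 of 4 states, at 1.68-fold in RAW_Mock, 6.84 in RAW_LPS, 2.91 in IBA and 4.27 in ASPC_Pre. Txnrd1, at 1.13 to 2.46, and Gclm, at 1.02 to 2.72, were also above 1 in all 4 states, the Gclm interval spanning 1 in IBA. Srxn1 was at 2.62 in RAW_Mock and 2.09 in ASPC_Pre but at 0.33 in RAW_LPS. In IBA cells the other members were not shifted alike: Nqo1 was at 8.33 CPM in extracts and 120.5 CPM in whole cells, a ratio of 0.069 (0.048 to 0.097), Gsta4 at 0.14 and Srxn1 at 0.27, whereas Txnrd1 was at 1.13 and Gclm at 1.02. Thinned to 50000 counts, 35.7% of 14 IBA extracts had a Tiparp count against 80.0% of 15 whole cells, so the higher Tiparp sums of extracts came from fewer cells. For Nqo1 these shares were 14.3% and 66.7%. A single extract held 72.3% of the Tiparp counts of IBA extracts.

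**Figure D5:**
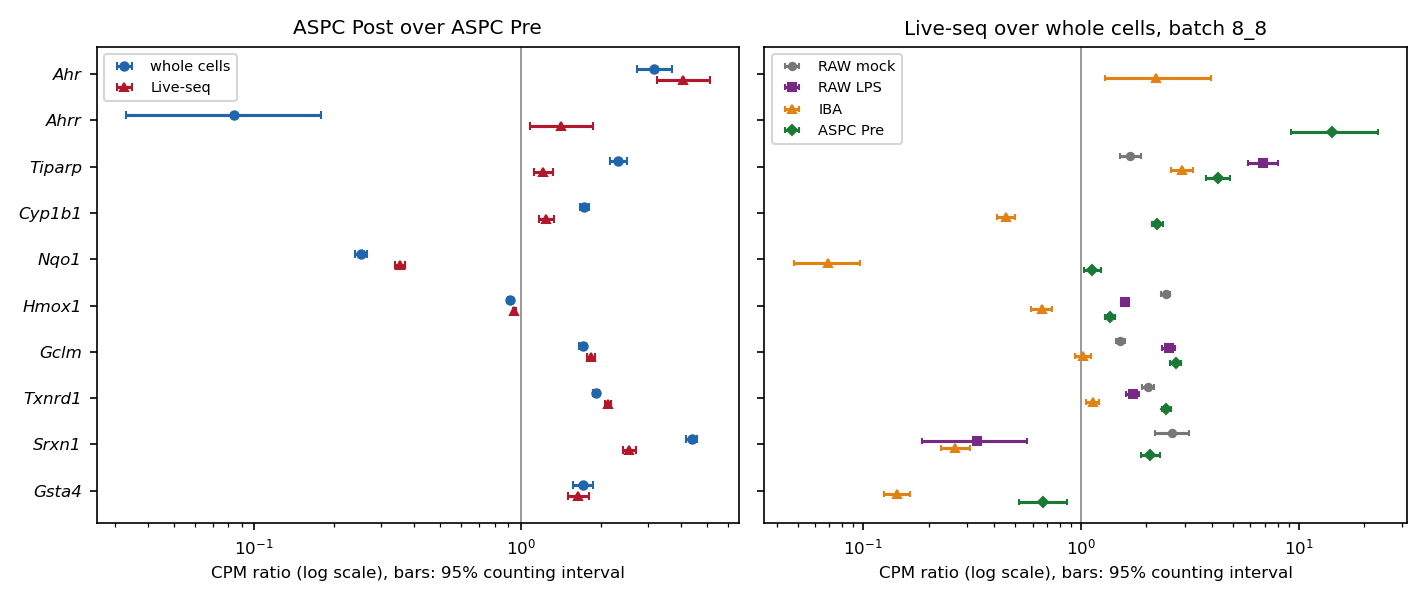
Left, ratio of CPM in ASPC_Post to ASPC_Pre for each member in whole cells (batch 9_1) and extracts (batch 9_4), and right, ratio of CPM in Live-seq extracts to whole cells of batch 8_8 by state, both on log axes with exact 95% counting intervals. Nqo1 lies below 1 on the left in both techniques and Srxn1 above it, and on the right Tiparp lies above 1 in all 4 states while Nqo1, Gsta4 and Srxn1 lie below 1 in IBA cells.

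The genes whose levels followed the members most closely were sought over the 12 whole-cell sums, as the Pearson correlation of log2(CPM + 1) among 9496 genes. The sums share batches and cell types, and the values are a description. Closest to Cyp1b1 were Zfhx3 and Ddr1 at 0.999 each, to Nqo1 Osbpl5 and Scrn1 at 0.997 each, to Gsta4 Erbb2 and Pcolce2 at 0.99 each, to Ahr Postn and Adam23 at 0.98 each and to Srxn1 Kif1c and Smurf2 at 0.96 and 0.95. The neighbours of 4 members present in both lineages were at 0.92 or lower, with 0.92 for Rassf3 and Spag9 to Gclm, 0.90 for Extl3 and Serping1 to Hmox1, 0.89 for Zeb2 and 0.85 for Cog3 to Txnrd1 and 0.83 for Zmym5 and 0.80 for Sptlc1 to Tiparp. Actn4 at 0.97 and Actg2 at 0.94 were nearest to Ahrr.

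The members lie on 8 chromosomes of GRCm38 in the GENCODE vM21 annotation, with exon lengths from 1266 bases for Gsta4 to 9441 bases for Ahrr, and all are protein-coding. Hmox1 (ENSMUSG00000005413) spans chr8:75093621-75100589 and Nqo1 (ENSMUSG00000003849) chr8:107388225-107403206. Tiparp (ENSMUSG00000034640) spans chr3:65528410-65555518, and 223 bases of its exons lie opposite an exon of the pseudogene 4931440P22Rik. Counting did not use strand, so reads in that stretch could not be told apart, nor those in 296 bases that Gclm shares with Gm17494. Over the series, sums used here held 1410305 to 34325221 counts.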

How the data were processed

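Single cells and Live-seq cytoplasmic extracts were profiled with a modified Smart-seq2 protocol. The authors called bases with bcl2fastq 2.19.1, aligned the first read of each fragment to mm10/GRCm38 with STAR 2.6.1c, kept uniquely mapped reads and deposited raw read counts per gene from HTSeq, counted without strand. Their filters removed libraries with few genes, a high mitochondrial share or a low mapping rate. All 1012 columns were used, and no pair was identical. Of 30452 features, 30322 matched a symbol and 918 held no counts. The 91 genes of ribosomal proteins and 20 genes seen in negative controls were dropped, as in the study, and the library sizes rest on the remaining 30341 features.

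Counts were summed per batch and state, in sums of at least 3 cells, because cells are not replicates. Sums of whole cells (12 sums) and of extracts (14 sums) were fitted separately with edgeR 4.0.16 (quasi-likelihood, TMM, state and batch as terms, prior count 0.125) in R 4.3.3, with p-values adjusted by Benjamini-Hochberg over all genes tested. Genes tested had at least 2 counts in 15% of the cells of 1 state and passed filterByExpr (minimum count 2, minimum proportion 0.05). A gene was called at an adjusted p under 0.05 and an absolute log2 fold change over 1. The batch term came from the batch names in the labels. Deviations of sums from the state means correlated with those of the same batch at 0.287, 0.459 and 0.522 in whole cells (8_8, 9_1, scRNA) and at 0.212, 0.0683, 0.0250 and 0.110 in extracts (6, 7, 8_8, 9_4). Batch 8_1 and the ASPC treatment had 1 batch per group and no test.

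The members and all gene lists were chosen with earlier results of these data known. Named genes were the 10 members, the 2 genes with the most similar levels to each member among those with a mean of at least 10 CPM, and called or 1.5-fold different genes of the AHR (15), NRF2 (37), heat shock (8) and integrated stress (8) lists. In counts simulated with known changes for IBA against RAW_Mock, the test recovered 7.41%, 50.0% and 98.4% of genes changed 2-, 4- and 8-fold in whole cells (13403 genes) and 0 at any of these folds in extracts (11577 genes). A 2-fold change lies on the fold threshold itself, so many such genes fail the call whatever the power. The simulation gave all genes the common dispersion and no batch effect. The real fit of extracts called 287 genes in this comparison, so the simulated setting differed from the data. Alternatives were DESeq2 1.42.0, the newer edgeR fit, RLE size factors, no filter, the left-out genes kept, no batch term, each batch left out in turn and, for batch 8_1, TMM scaling, cells sampled down, the mean of cells and the highest cell left out. Python 3.11.15 with numpy 2.4.6, scipy 1.17.1, pandas 2.3.3 and matplotlib 3.10.9 served for sums, intervals and plots. Extracts of wild-type RAW cells were in a batch of their own and were not tested.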

Additional observations from a re-analysis of the deposited data

Results flagged for a closer look

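Txnrd1 stood at 2390 CPM in the Live-seq RAW_LPS sum of batch 6, far from the 674, 694 and 946 CPM of the other batches. Its gap to the nearest sum was 0.84 of the whole range, and 1 of the 4 extracts of this sum held 79.9% of its counts. Ahrr was at 1.05 CPM in the Live-seq RAW_Mock sum of batch 8_8, from 19 counts in 1 cell, with 0 counts in the other 3 batches. These were 2 of 11 groups examined for a sum far from the others. The limit used gives about 1 such group in 20 by chance. That rate does not apply to Ahrr, whose counts were all in 1 of the sums.

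Ahrr was also on opposite sides after adipogenic treatment. Its ratio of ASPC_Post to ASPC_Pre was 0.0838 in whole cells, from 7 against 118 counts, and 1.42 in extracts, from 134 against 94 counts. All 134 counts were in 1 of 37 extracts, and the difference between the techniques was not tested.

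Extracts of wild-type RAW cells entered no comparison. In the 11 extracts labelled as LPS treated, Hmox1 was at 2491 CPM, Txnrd1 at 869 CPM and Srxn1 at 332 CPM. The single wild-type extract without LPS, of 353168 counts, held 0 counts of each of these 3 genes.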

How the results depend on the processing

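The members called between IBA and ASPC_Pre in whole cells, 4 with the batch as replicate block, were 2 with no replicate block and 0 to 3 with 1 batch left out. Between IBA and RAW_Mock extracts the 3 members called became 0 to 3 with 1 batch left out, and 0 without 7, 8_8 or 9_4. DESeq2 called 1 member between RAW_LPS and RAW_Mock and 1 between IBA and ASPC_Pre extracts, against 0. Over all genes, RAW_LPS against RAW_Mock in whole cells gave 167 calls, 710 with DESeq2, 432 with the newer edgeR fit, 253 without a filter, 35 with no replicate block and 0 to 24 with 1 batch left out. For IBA against ASPC_Pre in whole cells 1525 calls became 2537 with the newer edgeR fit, 908 with no replicate block and 51 to 1566 with 1 batch left out, and for IBA against RAW_Mock 4567 became 3007 to 4521. In extracts, IBA against RAW_Mock gave 287 calls, 1439 with DESeq2, 969 with the newer edgeR fit, 708 with no replicate block and 13 to 375 with 1 batch left out. The 2 calls for IBA against ASPC_Pre extracts were 204 with DESeq2, 9 with the newer edgeR fit, 15 without a filter, 11 with no replicate block and 0 to 3 with 1 batch left out. With no replicate block, NRF2 list genes called between IBA and ASPC_Pre in whole cells were 2 higher and 4 lower, against 3 and 11, and Nfe2l2 (adjusted p = 0.065, edgeR) and, for RAW_LPS against RAW_Mock, Maff (adjusted p = 0.14, edgeR) were not called. Log2 fold changes that turned sign were, in whole cells, Ahrr for RAW_LPS against RAW_Mock at 0.081 without scRNA (-5.87 to 0.081 over the batches left out), Txnrd1 for IBA against RAW_Mock at 0.092 without 9_1 (-0.56 to 0.092) and Cyp1b1 for IBA against ASPC_Pre at 0.14 without 8_8 (-0.50 to 0.14). In extracts they were Srxn1 for RAW_LPS against RAW_Mock at 0.32 without 6 and 0.28 without 8_8 (-1.18 to 0.32), Hmox1 for IBA against RAW_Mock at 0.048 without 8_8 (-1.37 to 0.048) and Gclm in that comparison at -0.49 with no replicate block, -0.10 without 6 and -0.29 without 9_4 (-0.29 to 0.53). For IBA against ASPC_Pre extracts without 8_8, Ahr turned to -0.41 (-0.41 to 4.02) and Cyp1b1 to 1.03 (-2.63 to 1.03). None of these had been called, and the cause was not tested. RLE size factors and keeping the left-out genes changed no count of members by over 1.5 times. In batch 8_1 the members higher than control stayed at 5 or 6 at 1 h and 6 or 7 at 4 h. With 1 batch per group, and 2 to 4 per state elsewhere, the number of batches limits these values.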
